A study of Mus musculus with 6 samples.

Results

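The E2F and retinoblastoma family was taken as 10 genes of the 22614 rows of the deposited expression table, found by their symbols: E2f1, E2f2, E2f3, E2f4, E2f6, E2f7 and E2f8, and the pocket protein genes Rb1, Rbl1 and Rbl2. All 10 were in the table and all 10 passed the filter on low values, a mean of at least 1 FPKM (fragments scaled to transcript length and library size) over all libraries. E2f5, the remaining E2F gene, was not among the 10 and is described beside them. RNA was sequenced from RAW264.7 cells, a macrophage line of the mouse transformed with Abelson leukaemia virus. The nanoparticle group (3 libraries) received CM-PEG-PLGA@DOX/R848 particles for 24 h at a dose carrying the equivalent of 2 µg/mL of DOX, and the PBS group (3 libraries) received phosphate buffered saline for 24 h. Doxorubicin (DOX) poisons topoisomerase II, resiquimod (R848) activates Toll-like receptors, PEG and PLGA are the carrier polymers, and the labels do not explain CM. No library was given the drug, the agonist or the empty carrier alone, so their contributions cannot be told apart. Nothing says that the 3 libraries of a group were grown as separate cultures, and the p-values therefore cover the spread among these samples alone, which may be technical.

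E2F proteins bind promoters of genes needed for DNA synthesis and mitosis, most of them as dimers with a DP protein. The pocket proteins RB (Rb1), p107 (Rbl1) and p130 (Rbl2) bind E2Fs and hold their targets down in resting cells, and cyclin-dependent kinases release that hold by phosphorylating the pocket. E2f1, E2f2 and E2f3 are grouped as activators, E2f4 and E2f5 as repressors that work with pocket proteins, E2f6 as a repressor that works without them through Polycomb proteins, and E2f7 and E2f8 as atypical repressors that bind DNA without a DP partner. Several E2F family genes are themselves E2F targets.

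The promoters that hold the E2F word are shown because E2F family genes can be regulated by the family's own products. The RefSeq table (GRCm38.p6) gave a window of 250 bases before to 50 bases after the start for 8 of the 10 members, 10 windows in all because E2f2 and E2f3 have more than 1 start. The E2F words searched on both strands were TTTCCCGC, TTTCGCGC, TTTGCCGC and TTTGGCGC. At least 1 of them stood in 4 of the 10 member windows, each of a different member. The windows of E2f1, E2f6, E2f8 and Rbl2 and the second windows of E2f2 and E2f3 held none. Of all 32851 windows of the same length, 2.26% held 1 or more. In capitals are the matches, placed from the RefSeq starts. TTTGGCGC stood 39 bases after the E2f2 start. TTTCCCGC, read on the opposite strand, stood 11 bases before the first E2f3 start and 198 bases before the E2f7 start. TTTCGCGC stood 18 bases before the Rbl1 start. The GENCODE coordinates given below place the E2f2 start at 136172394, past the end of its window at 136172323. By that annotation the E2f2 match lies before the gene. A match describes these letters and is no evidence of binding.
E2f2 (chr4:136172024-136172323, plus strand): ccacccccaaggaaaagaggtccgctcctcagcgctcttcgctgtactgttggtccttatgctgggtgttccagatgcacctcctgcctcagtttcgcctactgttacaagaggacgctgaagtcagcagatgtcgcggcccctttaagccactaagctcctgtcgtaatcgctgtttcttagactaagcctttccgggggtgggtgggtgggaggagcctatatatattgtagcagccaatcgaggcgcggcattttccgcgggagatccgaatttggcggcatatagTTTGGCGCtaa
E2f3 (chr13:29986014-29986313, minus strand): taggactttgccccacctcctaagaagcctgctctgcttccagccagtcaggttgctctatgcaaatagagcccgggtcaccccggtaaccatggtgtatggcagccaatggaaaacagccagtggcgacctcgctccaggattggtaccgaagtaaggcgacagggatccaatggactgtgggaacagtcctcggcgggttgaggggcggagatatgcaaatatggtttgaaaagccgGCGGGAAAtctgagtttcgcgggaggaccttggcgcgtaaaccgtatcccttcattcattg
E2f7 (chr10:110745189-110745488, plus strand): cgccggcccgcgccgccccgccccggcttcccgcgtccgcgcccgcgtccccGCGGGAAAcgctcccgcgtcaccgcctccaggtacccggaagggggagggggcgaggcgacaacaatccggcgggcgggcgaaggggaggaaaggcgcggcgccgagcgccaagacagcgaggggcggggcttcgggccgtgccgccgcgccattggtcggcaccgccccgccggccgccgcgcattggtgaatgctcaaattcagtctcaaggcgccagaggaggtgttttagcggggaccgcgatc
Rbl1 (chr2:157204485-157204784, minus strand): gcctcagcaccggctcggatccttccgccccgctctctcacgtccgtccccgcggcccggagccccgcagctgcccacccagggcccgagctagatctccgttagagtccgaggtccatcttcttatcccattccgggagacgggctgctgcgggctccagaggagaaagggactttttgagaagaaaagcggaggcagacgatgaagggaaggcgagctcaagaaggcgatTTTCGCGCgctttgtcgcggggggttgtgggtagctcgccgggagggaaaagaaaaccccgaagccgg
A separate word found in cell cycle promoters is the CHR element TTTGAA. It stood in 1 window each of 4 members, and in 17.9% of all windows. The 4 were E2f2 (not in the window printed), E2f3, E2f8 and Rbl2. No CHR match overlapped an E2F match. E2f4, Rb1 and E2f5 had no window in the table and were not searched. The E2f1 window, without an E2F word, covers 154569377 to 154569676 on the minus strand. It lies inside the gene as GENCODE places it, with a start at 154569892. The bases before that start were not searched.

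The libraries listed 15723 to 15989 genes above 0 FPKM in the nanoparticle group and 12678 to 12872 in the PBS group. Along the first principal component of the tested genes (93.9% of variance) the groups lay apart. Macrophage markers were present, with Cd68 at 606 ± 21.9 FPKM in nanoparticle libraries and 792 ± 34.0 FPKM in PBS libraries (SD, n = 3 each). Of 12 macrophage markers 4 rose and 7 fell, and their summed level was 1964 to 2117 FPKM in nanoparticle libraries against 3992 to 4181 FPKM in PBS libraries. Adgre1 and Aif1 were the markers with the largest rises (log2 fold change 2.28 and 0.93), and Csf1r and Lyz2 those with the largest falls (-2.57 and -1.92). Markers of T cells, B cells, fibroblasts, epithelium and endothelium summed to at most 1.35 FPKM per list in any library, the highest being the endothelial list. Cd3g, Cd8a and Krt18 were listed at 0 in every library.

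Most genes of the family were lower after the nanoparticles. Of the 10 members, 8 fell, 1, Rb1, rose and 1, Rbl2, did not pass the test. Across all 10229 genes tested, 34.5% fell, 42.7% rose and 77.2% passed in either direction, so passing the test at all was common in this comparison. Counts given for other lists of genes, the macrophage markers above and the lists below, are to be read beside these same shares. The median log2 fold change was -0.64 over the 10 members and 0.08 over all tested genes. Groups did not overlap at 9 members, against 78.8% of all tested genes. Summed over the 10 members, the level was 117 to 123 FPKM in nanoparticle libraries and 187 to 194 FPKM in PBS libraries. Tests used limma on log2(FPKM + 1) with Benjamini-Hochberg adjustment over all tested genes and a threshold of 0.05, and fold changes on that scale understate the change of low genes. In bulk RNA, fewer cells in a cycle phase and less transcript per cell cannot be told apart.

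**Figure D1:**
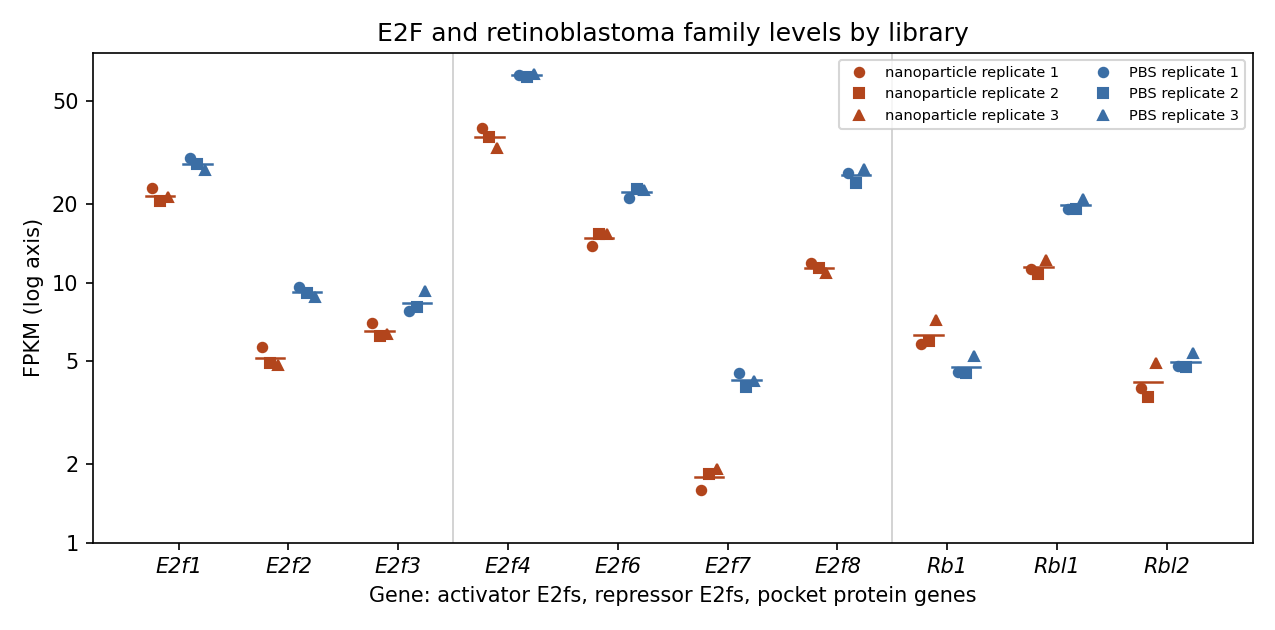
FPKM of the 10 family genes on a log axis, in each nanoparticle library (left of each pair, brown) and PBS library (right, blue), with symbols for the replicate and a line at the group mean. Every E2F gene shown is lower in all nanoparticle libraries than in any PBS library, Rb1 is higher, and the Rbl2 groups overlap.

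Among the activators, E2f2 changed most. E2f1 (ENSMUSG00000027490, chromosome 2, 154559407 to 154569892, minus strand, GRCm38), which drives S phase genes and can also promote apoptosis, had 23.0, 20.5 and 21.3 FPKM in nanoparticle libraries, against 30.2, 28.5 and 27.2 FPKM in PBS libraries. The groups did not overlap, and the mean FPKM of E2f1 fell 1.32-fold (limma log2 fold change -0.39 ± 0.07 SE, adjusted p = 4.0e-04). E2f2 (ENSMUSG00000018983, chromosome 4, 136172394 to 136196057, plus strand), a second S phase activator, had 5.64, 4.90 and 4.83 FPKM in nanoparticle libraries, against 9.60, 9.08 and 8.81 FPKM in PBS libraries. Every nanoparticle library lay well under the lowest PBS library, a 1.79-fold fall in mean FPKM (limma log2 fold change -0.73 ± 0.08 SE, adjusted p = 1.5e-05). E2f3 (ENSMUSG00000016477, chromosome 13, 29906575 to 29986063, minus strand), whose E2f3a and E2f3b isoforms were not separated in the table, had 7.0, 6.21 and 6.36 FPKM in nanoparticle libraries, against 7.80, 8.02 and 9.27 FPKM in PBS libraries. The gap between the groups was narrow, and PBS replicate 3 stood above the other PBS libraries. E2f3 had the smallest fall of the members that passed, 1.28-fold in mean FPKM (limma log2 fold change -0.31 ± 0.08 SE, adjusted p = 0.0065).

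The summed level of the 3 activators was 33.3 ± 2.14 FPKM in nanoparticle libraries and 46.2 ± 1.24 FPKM in PBS libraries (SD, n = 3 each). E2f1 was the main activator transcript in every library, with 64.6% to 65.6% of that sum in nanoparticle libraries and 60.1% to 63.5% in PBS libraries. The share of E2f2 was 15.4% ± 0.501 in nanoparticle libraries and 19.8% ± 0.353 in PBS libraries. E2f3 held 19.6% ± 0.0515 in nanoparticle libraries and 18.1% ± 2.10 in PBS libraries, a difference within the spread of the PBS libraries. E2f2 ranked above E2f3 by mean level in PBS libraries, where their ranges overlapped, and below E2f3 in nanoparticle libraries, where E2f2 lay apart under it.

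The atypical repressors had the largest falls of the family. E2f8 (ENSMUSG00000046179, chromosome 7, 48866429 to 48881596, minus strand), which represses E2F1 targets late in S phase, had 11.9, 11.4 and 10.9 FPKM in nanoparticle libraries, against 26.3, 24.2 and 27.3 FPKM in PBS libraries. The groups were far apart relative to their spread, and E2f8 fell 2.27-fold in mean FPKM (limma log2 fold change -1.12 ± 0.07 SE, adjusted p = 2.3e-07). Gm2788, on the opposite strand and without a listed level, shares 11.2% of the E2f8 exon bases, and its part in the E2f8 value was not tested. Only 4.91% of tested genes had a log2 fold change lower than or equal to that of E2f8. E2f7 (ENSMUSG00000020185, chromosome 10, 110745439 to 110787384, plus strand), its partner in the atypical pair and a known p53 target, had 1.6, 1.84 and 1.92 FPKM in nanoparticle libraries, against 4.47, 3.97 and 4.19 FPKM in PBS libraries. It was the least abundant member in both groups and fell 2.36-fold in mean FPKM, more than any other member (limma log2 fold change -0.90 ± 0.08 SE, adjusted p = 5.0e-06). At this low level the log2 value depends on the pseudocount, being -1.19 with 0.1 FPKM added and -0.27 with 10 FPKM added, and it passed the threshold with each.

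E2f4 and E2f6 also fell. E2f4 (ENSMUSG00000014859, chromosome 8, 105297663 to 105305370, plus strand), which carries p107 and p130 to promoters in resting cells, had 39.3, 36.4 and 32.8 FPKM in nanoparticle libraries, against 62.7, 61.9 and 63.5 FPKM in PBS libraries. It was the most abundant member in both groups and lay apart from every other member, and it fell 1.73-fold in mean FPKM (limma log2 fold change -0.78 ± 0.07 SE, adjusted p = 3.4e-06). E2f6 (ENSMUSG00000057469, chromosome 12, 16810963 to 16839742, plus strand), the Polycomb-linked repressor, had 13.8, 15.4 and 15.4 FPKM in nanoparticle libraries, against 21.2, 22.9 and 22.6 FPKM in PBS libraries. The groups did not overlap, and E2f6 fell 1.5-fold in mean FPKM (limma log2 fold change -0.55 ± 0.07 SE, adjusted p = 3.8e-05).

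The 4 repressor genes among the members summed to 64.2 ± 2.79 FPKM in nanoparticle libraries and 115 ± 2.34 FPKM in PBS libraries. E2f8 made up 17.8% ± 0.189 of that sum in nanoparticle libraries and 22.5% ± 0.953 in PBS libraries, and E2f7 made up 2.79% ± 0.367 in nanoparticle libraries and 3.66% ± 0.205 in PBS libraries. E2f6 held 23.2% ± 2.31 in nanoparticle libraries and 19.3% ± 0.868 in PBS libraries. The share of E2f4 was 56.2% ± 2.68 in nanoparticle libraries and 54.5% ± 0.412 in PBS libraries, and these ranges overlapped. In PBS libraries E2f8 ranked 3 in the family with a range overlapping that of E2f1, while in nanoparticle libraries it ranked 5 with a range overlapping that of Rbl1.

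E2f5 (ENSMUSG00000027552, chromosome 3, 14578641 to 14606309, plus strand), the relative of E2f4, did not share the fall. It had 11.6, 12.4 and 13.1 FPKM in nanoparticle libraries, against 9.08, 11.3 and 11.3 FPKM in PBS libraries. The groups lay close together without overlapping, and the difference missed the threshold (limma log2 fold change 0.22 ± 0.09 SE, adjusted p = 0.053). With the replicate number as a block it passed (adjusted p = 0.012). An opposite-strand gene, 1810022K09Rik, shares 1.46% of the exon bases of E2f5 and averaged 73.0 FPKM, and the sources used here do not say whether reads were counted by strand.

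**Figure D2:**
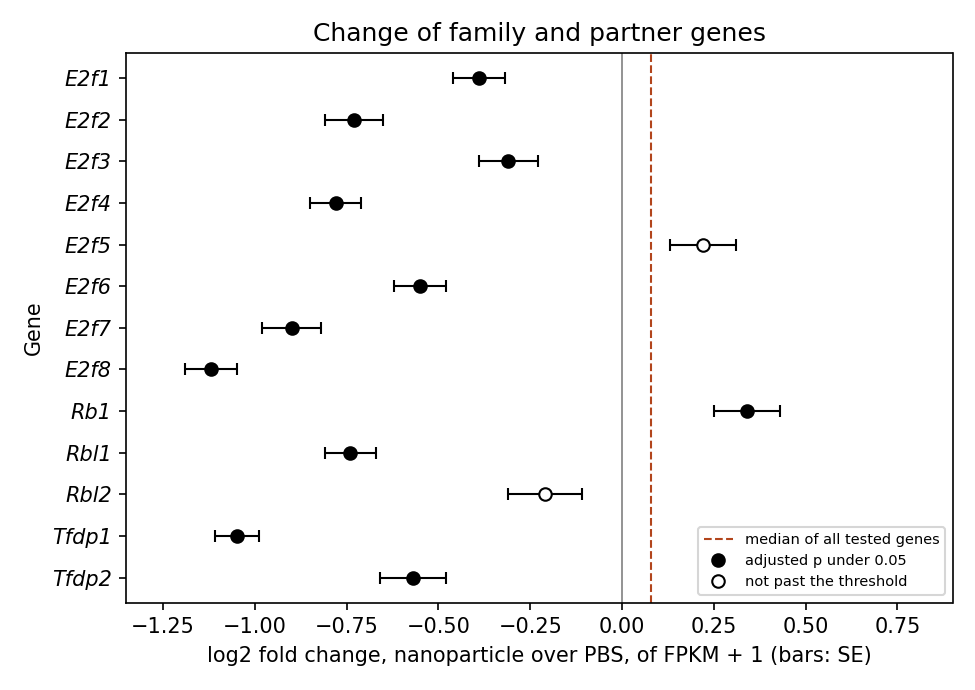
The log2 fold change of FPKM + 1, nanoparticle over PBS, for the 10 members, E2f5 and the DP genes Tfdp1 and Tfdp2, with bars for the SE, filled symbols for an adjusted p under 0.05 and a dashed line at the median of all tested genes, 0.08. Rb1 at 0.34 is the only filled symbol to the right of 0, and E2f8 at -1.12 lies farthest to the left.

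The pocket protein genes diverged. Rb1 (ENSMUSG00000022105, chromosome 14, 73183673 to 73325822, minus strand), the retinoblastoma tumour suppressor, had 5.82, 5.95 and 7.15 FPKM in nanoparticle libraries, against 4.52, 4.49 and 5.22 FPKM in PBS libraries. Replicate 3 was the highest in each group, and the lowest nanoparticle library lay above the highest PBS library. Rb1 rose 1.33-fold in mean FPKM (limma log2 fold change 0.34 ± 0.09 SE, adjusted p = 0.0070). It passed in all 15 alternatives tried (adjusted p of 0.0014 to 0.041), least firmly under upper quartile scaling. Its log2 fold change was at or above that of 65.6% of tested genes. Opposite-strand genes share exon bases with Rb1: Rcbtb2 shares 8.11% and had 6.94 to 9.84 FPKM in nanoparticle libraries and 5.10 to 6.85 FPKM in PBS libraries. Lpar6, nested in Rb1, shares 6.78% and had 3.79 to 4.16 FPKM in nanoparticle libraries and 2.03 to 2.21 FPKM in PBS libraries. The part of these neighbours in the Rb1 value was not tested.

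Rbl1 (ENSMUSG00000027641, chromosome 2, 157145893 to 157204534, minus strand), which encodes p107 and is itself an E2F target, had 11.3, 10.8 and 12.2 FPKM in nanoparticle libraries, against 19.2, 19.2 and 21 FPKM in PBS libraries. It fell 1.73-fold in mean FPKM (limma log2 fold change -0.74 ± 0.07 SE, adjusted p = 5.9e-06), and its promoter is among those printed above. Rbl2 (ENSMUSG00000031666, chromosome 8, 91070057 to 91123844, plus strand), which encodes p130, the pocket protein of resting cells, had 3.93, 3.63 and 4.90 FPKM in nanoparticle libraries, against 4.79, 4.72 and 5.34 FPKM in PBS libraries. Nanoparticle replicate 3 lay inside the PBS range, and the difference did not pass (limma log2 fold change -0.21 ± 0.10 SE, adjusted p = 0.078). It passed with the replicate block (adjusted p = 0.024), without nanoparticle replicate 3 (log2 fold change -0.32, adjusted p = 0.0071), and under upper quartile or median-ratio scaling (adjusted p = 0.019 and 0.022). Aktip, on the opposite strand, shares 9.17% of the Rbl2 exon bases and averaged 8.56 FPKM. Gm45464, also on the opposite strand and without a listed level, shares 11.8%. The part of these neighbours in the Rbl2 value was not tested.

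Within the pocket protein transcripts the make-up shifted from Rbl1 towards Rb1. Rb1 held 27.6%, 29.2% and 29.4% of their summed FPKM in nanoparticle libraries, against 15.9%, 15.8% and 16.5% in PBS libraries. Rbl1 held 52.4% ± 1.78 in nanoparticle libraries and 67.2% ± 0.550 in PBS libraries (SD, n = 3 each). The ratio of Rbl1 to Rb1 was 1.95, 1.81 and 1.71 in nanoparticle libraries, against 4.24, 4.29 and 4.03 in PBS libraries. Both shares lay apart between the groups in every library, and the share of Rb1 was 12.35 to 13.28 percentage points higher in the nanoparticle group when any 1 library was left out. Rbl2 held 18.9% ± 1.21 in nanoparticle libraries and 16.8% ± 0.160 in PBS libraries. The summed level of the 3 genes was 21.9 ± 2.08 FPKM in nanoparticle libraries and 29.5 ± 1.79 FPKM in PBS libraries. These shares are given as values without a test.

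**Figure D3:**
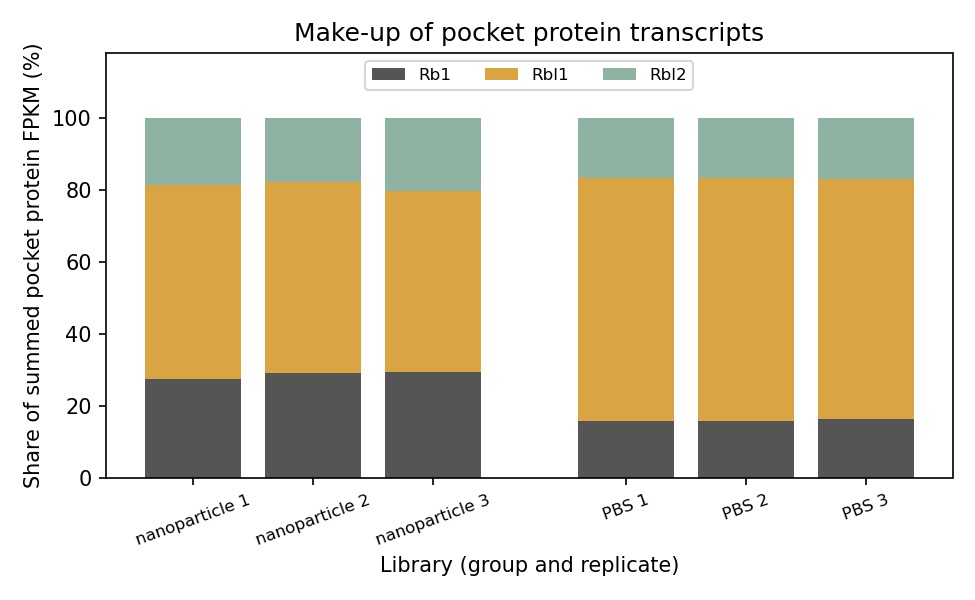
Share of Rb1, Rbl1 and Rbl2 in the summed FPKM of the pocket protein genes in each library, nanoparticle libraries on the left and PBS libraries on the right, as stacked bars that add to the whole. Rb1 takes 27.6% to 29.4% in nanoparticle libraries and 15.8% to 16.5% in PBS libraries.

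Profiles across the 6 libraries were compared by the root mean square difference of log2(FPKM + 1) after centring each gene on its mean. The genes nearest to Rb1 were Nsun3, Zfp292 and Hipk3, with differences of 0.019, 0.024 and 0.026, and each was highest in nanoparticle replicate 3. The genes nearest to E2f8 were Adam8, Cbx6 and Osbpl3, with differences of 0.029, 0.030 and 0.031. The libraries form 2 groups of 3, so a gene with a similar difference between the groups scores as near.

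The DP genes, whose products pair with E2f1 to E2f6, both fell. Tfdp1 had 66.8, 62.5 and 71.4 FPKM in nanoparticle libraries, against 135, 138 and 146 FPKM in PBS libraries (limma log2 fold change -1.05 ± 0.06 SE, adjusted p = 2.1e-07). Tfdp2 had 4.59, 4.91 and 5.63 FPKM in nanoparticle libraries, against 8.42, 7.96 and 7.43 FPKM in PBS libraries (log2 fold change -0.57). Neither pair of groups overlapped, and Tfdp1 was more abundant than any E2F gene in both groups.

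Genes of the kinases that act on pocket proteins were mostly lower. Of 10 cyclin, CDK and Cdc25a genes, 8 fell and 2 rose, and the median log2 fold change was -0.71. Ccnd1, cyclin D1, had 13.1, 14.1 and 13.3 FPKM in nanoparticle libraries, against 189, 183 and 175 FPKM in PBS libraries (limma log2 fold change -3.66, adjusted p = 4.3e-11). LTO1, on the opposite strand, shares 23.4% of the Ccnd1 exon bases and had 19.4 to 20.1 FPKM in nanoparticle libraries against 7.41 to 8.11 FPKM in PBS libraries. Ccnd3 averaged 24.1 ± 2.17 FPKM in nanoparticle libraries and 48.6 ± 2.05 FPKM in PBS libraries, and Cdk6, a partner of the D cyclins, averaged 6.75 ± 0.178 FPKM in nanoparticle libraries and 13.6 ± 0.413 FPKM in PBS libraries. Cdk4, the other partner, fell (log2 fold change -0.40), and Tspan31, which shares 19.7% of its exon bases from the opposite strand, had 132 to 151 FPKM in nanoparticle libraries against 42.4 to 47.4 FPKM in PBS libraries. Ccne1 and Ccne2, the E cyclins and classical E2F targets, fell by 0.92 and 0.62 on the log2 scale, and Ccna2, cyclin A, fell by 0.80. Opposite-strand genes share 17.4% of the exon bases of Ccne2 (Ints8, averaging 16.8 FPKM) and 12.5% of those of Ccna2 (Exosc9, averaging 45.8 FPKM). The part of these neighbours in the values was not tested. Cdc25a, the phosphatase that activates CDK2, fell by 0.20. The exceptions were Cdk2 (0.29, limma adjusted p = 0.0016) and Ccnd2 (0.27, adjusted p = 0.0091), which rose. Ccnd2 lost its call under upper quartile scaling (adjusted p = 0.065), and Cdc25a without nanoparticle replicate 2 or PBS replicate 2 (0.055 and 0.050).

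CDK inhibitor genes were divided, with Cdkn1a changing most. Of 7 listed, 4 were tested, and of these 3 rose and 1 fell. Cdkn1a, which encodes p21, had 305, 282 and 271 FPKM in nanoparticle libraries, against 31.8, 33.5 and 32.5 FPKM in PBS libraries (limma log2 fold change 3.09, adjusted p = 1.4e-10). Cdkn1b, which encodes p27, rose less: it averaged 12.7 ± 2.06 FPKM in nanoparticle libraries and 9.29 ± 0.373 FPKM in PBS libraries (log2 fold change 0.40). Cdkn2c rose slightly (0.19) and Cdkn2d fell (-0.34), both encoding inhibitors of CDK4 and CDK6, and Cdkn2c lost its call under upper quartile and median-ratio scaling (adjusted p = 0.24 and 0.097). Cdkn2a and Cdkn2b were listed at 0 in every library, and Cdkn1c averaged 0.0471 FPKM in nanoparticle libraries and was listed at 0 in PBS libraries.

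The MuvB core, which joins E2F4 and p130 or p107 in the DREAM repressor and later recruits MYBL2 and FOXM1 to activate mitotic genes, was listed with both activators as 8 genes that include Dyrk1a. Of these, 4 rose (Lin9, Lin37, Lin52 and Lin54), 2 fell (Mybl2 and Foxm1) and 2 did not pass. Lin37, needed for repression by DREAM, had 27.3, 25.5 and 24.5 FPKM in nanoparticle libraries, against 13.7, 11.7 and 12.0 FPKM in PBS libraries (limma log2 fold change 0.99, adjusted p = 1.1e-06). Lin9 and Lin52 rose by 0.44 each on the log2 scale and Lin54 by 0.32, a call that Lin54 lost under upper quartile scaling (adjusted p = 0.053). Mybl2 had 32.9, 27.3 and 28.7 FPKM in nanoparticle libraries, against 61.6, 58.9 and 58.7 FPKM in PBS libraries (log2 fold change -0.99). Foxm1 had 15.3, 14.4 and 15.9 FPKM in nanoparticle libraries, against 40.7, 36.3 and 39.3 FPKM in PBS libraries (log2 fold change -1.30). Rbbp4, the histone-binding subunit of the core, and Dyrk1a, the kinase that promotes DREAM assembly, did not pass (log2 fold change 0.08 and -0.05, with a sign that changed under some alternatives).

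Chromatin partners of RB moved in both directions, 5 of 16 higher and 8 lower, and the median log2 fold change was -0.09. Movement both ways was common, with 42.7% of all tested genes higher and 34.5% lower. Kdm5a, a histone demethylase first known as an RB-binding protein, averaged 8.75 ± 1.17 FPKM in nanoparticle libraries and 4.39 ± 0.597 FPKM in PBS libraries, and Arid4b, a Sin3 complex subunit, rose by 0.76 on the log2 scale. The maintenance methyltransferase gene Dnmt1 averaged 43.0 ± 4.16 FPKM in nanoparticle libraries and 117 ± 7.42 FPKM in PBS libraries, and Smarca2, a chromatin remodelling ATPase, fell by 0.79 on the log2 scale. Of 10 genes of the Polycomb complex that E2F6 joins, 2 rose and 4 fell. Over the alternatives 2 to 4 rose and 3 to 6 fell. The replicate block gave 4 rises, and upper quartile and median-ratio scaling each gave 6 falls. Rnf2, an E3 ligase for histone H2A, rose (0.87), as did Rybp (0.37), while Cbx3, a heterochromatin protein gene, fell (-1.65), as did Wdr5 (-0.81).

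Germline genes known as targets of E2F6 repression stayed near 0. None of 11 reached the filter, so none was tested in the main fit. Their summed level was 0.549 to 0.690 FPKM in nanoparticle libraries against 0 to 0.0624 FPKM in PBS libraries. Without the filter, 5 of the 11 were called higher, beside 6244 of all 18008 genes tested in that fit. Ddx4, a germ cell helicase gene, had 0.149, 0.116 and 0.175 FPKM in nanoparticle libraries and was listed at 0 in every PBS library. More genes of any kind were listed above 0 in the nanoparticle libraries, as given above, and the part of that in these values was not tested.

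Genes listed as E2F targets of the G1/S step were mainly lower, and the listed G2/M targets were mixed. Binding or activity of E2F at these genes was not measured. Of 53 G1/S targets, 38 fell, 5 rose and 10 did not pass, and the median log2 fold change was -0.62. Tk1, thymidine kinase, had 17.2, 15.3 and 12.9 FPKM in nanoparticle libraries, against 123, 122 and 116 FPKM in PBS libraries, and Pold1, the catalytic subunit of DNA polymerase delta, averaged 11.8 ± 1.09 FPKM in nanoparticle libraries and 47.3 ± 4.06 FPKM in PBS libraries. Rad51ap1, a recombination factor gene, was among the 5 that rose, by 0.55 on the log2 scale. Of 40 G2/M targets, 21 fell and 13 rose, with a median of -0.20. Foxm1 and Bub1b, a spindle checkpoint kinase gene, had the largest falls there (-1.30 and -1.17), and Aurka and Cenpe, a mitotic kinase and a kinetochore motor gene, the largest rises (0.83 and 0.76). Summed over each list, G1/S transcripts were at 1895 to 1922 FPKM in nanoparticle libraries and 2992 to 3008 FPKM in PBS libraries, while G2/M transcripts were at 2258 to 2277 FPKM in nanoparticle libraries and 2242 to 2282 FPKM in PBS libraries. Some genes stand on more than 1 list.

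**Figure D4:**
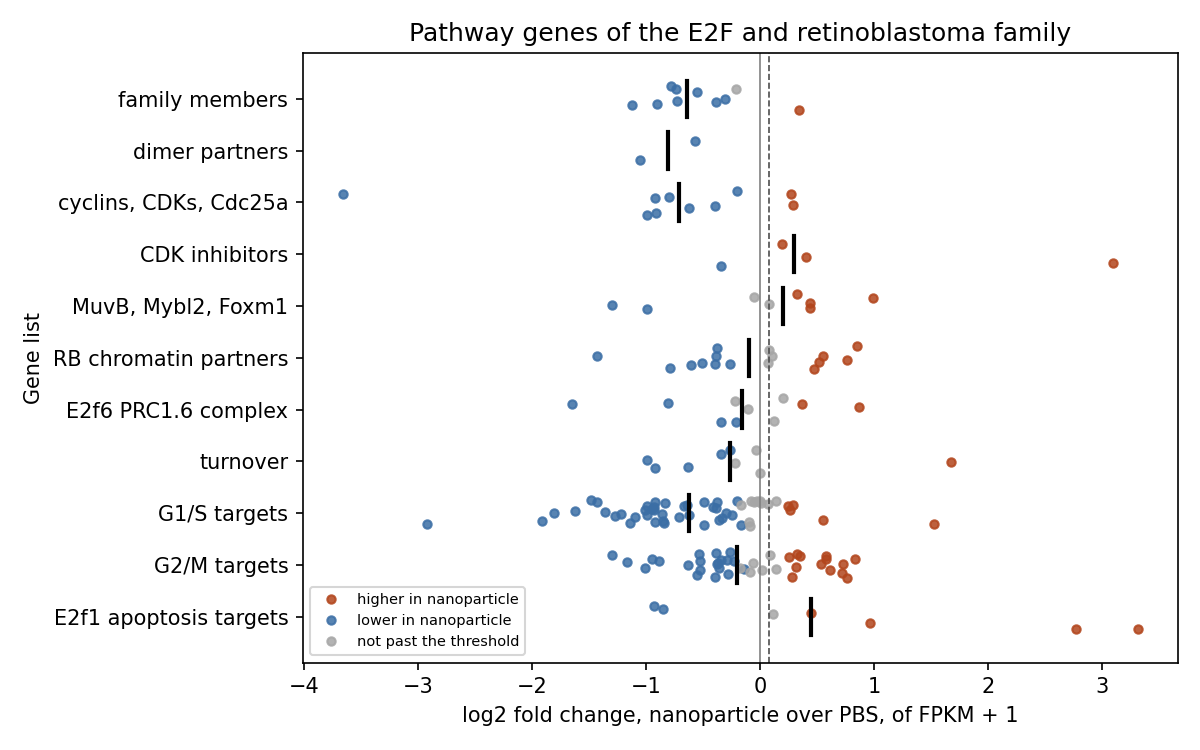
The log2 fold change of FPKM + 1, nanoparticle over PBS, with 1 point for each tested gene of the family and of its pathway lists, coloured by direction where the adjusted p was under 0.05, and a black bar at each list's median. Points of the G1/S list lie mostly left of 0 (median -0.62), and those of the G2/M list on both sides (median -0.20).

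Death genes that E2F1 can activate were divided. Of 7 tested, 4 rose and 2 fell, and the median log2 fold change was 0.45. Bcl2l11, the BH3-only gene Bim, averaged 52.7 ± 1.38 FPKM in nanoparticle libraries and 4.42 ± 0.204 FPKM in PBS libraries, and Pmaip1, the BH3-only gene Noxa, averaged 68.4 ± 6.67 FPKM in nanoparticle libraries and 9.20 ± 1.35 FPKM in PBS libraries. Map3k5, the kinase ASK1, was among those that fell, by 0.93 on the log2 scale. Bcl2l11, Pmaip1 and Bbc3 also respond to other regulators. Among 9 genes of E2F and cyclin turnover, 5 fell and 1 rose. Skp2, the F-box protein that directs p27 for degradation and is itself bound by pocket proteins, averaged 8.60 ± 0.540 FPKM in nanoparticle libraries and 17.2 ± 1.14 FPKM in PBS libraries. Fbxo5, the inhibitor Emi1, fell by 0.99 on the log2 scale, and Mdm2, a p53 target whose product also binds RB, was the gene that rose (1.67).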

How the data were processed

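mRNA-enriched libraries from 6 RAW264.7 samples (3 nanoparticle, 3 PBS) were grouped by their titles, and columns were matched to libraries by library name. The column taken as PBS replicate 1 carries a suffix (-C) that its library name lacks and that no label explains. The deposited table held FPKM, scaled by the authors. The header names no unit, so FPKM was inferred from the values. The submitters' processing notes list STAR, featureCounts and GRCm38 (mm10), without versions. Rows without an Ensembl gene identifier (498 MSTRG and 11 transcript rows, 0.427% to 0.497% of FPKM) were left out. The sources used here give no total depth. Low values of genes with 1 transcript gave no common step at which most were whole fragments (11.7% to 34.9% were within 0.05), so no count test was run. Coordinates and exon overlaps came from GENCODE M21 (GRCm38).

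Genes averaging 1 FPKM or more were tested with limma 3.58.1 (intensity trend, R 4.3.3) on log2(FPKM + 1), two-sided, with treatment as the only term, on all 6 libraries. Python 3.11.15, pandas 2.3.3 and matplotlib 3.10.9 were used. The procedure was run on simulated data with independent errors and far fewer changed genes than were called here. That run cannot show how the calls behave when most genes change. Members and lists were chosen with earlier results of these data known. All members were named, along with E2f5, genes of the partner, MuvB, kinase and inhibitor lists, and the 2 called genes with the largest fold change each way from other lists, except some that are not reported here. Deviations from group means correlated across genes at 0.13, 0.11 and 0.35 between same-numbered libraries (replicates 1, 2 and 3). Between different-numbered libraries the correlation was -0.26 to 0.13, so replicate 3 alone stood clearly above that range. No label states a pairing, so the main test had no replicate term and the replicate block was run as an alternative. Alternatives were 2 pseudocounts, 2 filters, 3 scalings, no trend, the replicate block and leaving out each library.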

Additional observations from a re-analysis of the deposited data

How the results depend on the processing

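Of 163 refits of the members and E2f5, 155 kept the direction and side of the threshold, none reversed, and 8, all of Rbl2 or E2f5, moved past it. The number of members called was 8 to 10 over the alternatives, with 1 higher and 7 to 9 lower, and the count over all genes was 6382 to 9804 (7896 as reported). With a minimum mean of 5 FPKM, E2f7 and Rbl2 were not tested. The replicate block called 10 members, 1 higher and 9 lower, adding Rbl2, called E2f5 higher, and changed no other call among members. Upper quartile scaling shifted the median log2 fold change of all tested genes by -0.11, and no member changed direction under it. E2f5 also passed without nanoparticle replicate 1 (adjusted p = 0.044), PBS replicate 2 (0.045) or PBS replicate 3 (0.042). A pseudocount of 10 FPKM brought Rb1 to 0.14 and E2f2 to -0.34 on the log2 scale, and both still passed. Of 50 partner, target and marker genes named, 44 kept direction and side of the threshold throughout. Ccnd2, Cdc25a, Cdkn2c and Lin54 lost calls as stated, while Rbbp4, not called, turned to -0.04 under upper quartile scaling and Dyrk1a, not called, to 0.03 without nanoparticle replicate 1 and 0.00 without PBS replicate 3 (range -0.10 to 0.03 with 1 library left out). Without a filter, 5 E2f6 germline targets were called higher, beside 6244 of all 18008 genes tested in that fit. With a minimum of 5 FPKM, 1 apoptosis target was called lower in place of 2, and 1 cyclin or CDK gene higher in place of 2. Depth is unknown, so no counting interval can be given.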
